A study of Homo sapiens with 12 samples.

Results

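The Sprouty and SPRED genes encode a family of inhibitors that act on growth factor signalling. They were followed here in human mesothelioma cells during inhibition of TEAD, the transcription factor family through which the Hippo pathway's co-activators YAP and TAZ bind DNA. Of the 58302 Ensembl genes in the deposited tables, 6 were taken by their symbols: the Sprouty genes SPRY1, SPRY2 and SPRY4, and the SPRED genes SPRED1, SPRED2 and SPRED3. RNA sequencing covered 12 libraries in 4 groups of 3. The groups were NCI-H226_CL3 cells (resistant) with the TEAD inhibitor GNE-7883, the same cells with the solvent DMSO, NCI-H226 cells (sensitive) with GNE-7883, and the same cells with DMSO. NCI-H226 is an established human line, NF2-null per the labels, NF2 being an upstream Hippo gene. NCI-H226_CL3 is the 1 resistant line of the study and was derived from it by growth in a TEAD inhibitor raised stepwise from 0.25 to 3 µM. All groups therefore share the NF2-null background, and the comparison of the lines rests on 1 resistant line and its parent line. The labels give neither the dose nor the duration of the last GNE-7883 incubation. Nor do they say whether replicates were grown separately, and p-values therefore cover the spread between libraries, whether technical or biological. The study addressed acquired resistance to TEAD inhibition and named the MAPK pathway in its title.

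Growth factors bind receptor tyrosine kinases, which load RAS with GTP and so start the RAF, MEK and ERK kinase cascade. ERK induces many of its own inhibitors, among them Sprouty and SPRED genes and the DUSP phosphatases, so that these transcripts are both brakes on the pathway and readouts of it. Sprouty proteins act between the receptors and RAF, and they bind the adaptor GRB2 and the ubiquitin ligase CBL. SPRED proteins share the cysteine-rich Sprouty domain and carry in addition an EVH1 domain, through which SPRED1 brings the RAS GTPase-activating protein neurofibromin to the membrane.

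RefSeq lists 11 start-site windows for the 6 genes on GRCh38.p14, each with 250 bases before and 50 bases after the start. They were searched on both strands for GGAATG, the core recognised by TEAD proteins, for CCGGAA, a form of the ETS core that ERK-responsive ETS factors bind, and for TGANTCA, the AP-1 element. Of these windows 5 held a match and 6 held none. The 5 are shown because they carry the letters by which TEAD, ETS and AP-1 factors are known to bind, with the match in capitals. They lie at chr5:142324198-142324497 on the minus strand (SPRY4), chr4:123398136-123398435 on the plus strand (SPRY1), chr13:80341077-80341376 on the minus strand (SPRY2), chr2:65366729-65367028 on the minus strand (SPRED2) and chr19:38389541-38389840 on the plus strand (SPRED3), and are printed from 5′ to 3′ in the direction of the gene.
SPRY4: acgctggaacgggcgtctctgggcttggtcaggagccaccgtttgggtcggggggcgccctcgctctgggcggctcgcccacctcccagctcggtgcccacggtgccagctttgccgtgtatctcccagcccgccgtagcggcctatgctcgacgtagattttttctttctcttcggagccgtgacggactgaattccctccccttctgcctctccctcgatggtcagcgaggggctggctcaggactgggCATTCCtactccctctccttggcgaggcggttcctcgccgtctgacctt
SPRY1, second window: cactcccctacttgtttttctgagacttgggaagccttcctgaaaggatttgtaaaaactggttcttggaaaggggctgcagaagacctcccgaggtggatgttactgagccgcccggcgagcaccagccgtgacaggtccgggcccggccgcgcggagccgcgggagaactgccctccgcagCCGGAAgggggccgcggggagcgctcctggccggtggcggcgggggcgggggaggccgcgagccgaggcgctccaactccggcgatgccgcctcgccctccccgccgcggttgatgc
SPRY2, first window: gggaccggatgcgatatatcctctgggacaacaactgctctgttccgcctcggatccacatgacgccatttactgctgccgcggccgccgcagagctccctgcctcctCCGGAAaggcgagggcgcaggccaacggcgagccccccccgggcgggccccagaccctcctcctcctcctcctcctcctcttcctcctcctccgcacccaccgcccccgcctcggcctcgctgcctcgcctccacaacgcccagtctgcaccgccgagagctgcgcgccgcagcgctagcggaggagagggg
SPRED2, second window: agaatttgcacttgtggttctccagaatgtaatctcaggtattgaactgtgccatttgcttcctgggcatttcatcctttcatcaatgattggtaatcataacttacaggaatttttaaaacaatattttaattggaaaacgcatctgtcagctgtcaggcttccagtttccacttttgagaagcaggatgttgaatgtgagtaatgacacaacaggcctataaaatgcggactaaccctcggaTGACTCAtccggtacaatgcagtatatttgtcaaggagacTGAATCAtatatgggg
SPRED3, first window: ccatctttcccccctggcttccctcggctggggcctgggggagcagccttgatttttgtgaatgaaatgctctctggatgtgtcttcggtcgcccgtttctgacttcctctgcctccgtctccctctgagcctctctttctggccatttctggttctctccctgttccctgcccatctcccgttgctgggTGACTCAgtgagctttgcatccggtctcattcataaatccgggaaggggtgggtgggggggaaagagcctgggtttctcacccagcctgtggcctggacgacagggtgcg
The SPRY4 window held the TEAD core as its reverse complement, CATTCC, beginning 1 base after the start base. The second SPRY1 window held the ETS core 67 bases before its start, and the first SPRY2 window held it 142 bases before its start. The second SPRED2 window held the AP-1 element 6 bases before and 34 bases after its start, and the first SPRED3 window held it 60 bases before its start. Over 35116 RefSeq windows of the same length, 14.0% held the TEAD core, 17.2% the ETS core and 7.71% the AP-1 element, so each is a common sequence. For SPRY1, SPRED2 and SPRED3 the window nearest the annotated 5′ end of the gene held no match. Which of the starts these cells use was not tested. A match is a description of these letters and no measurement of binding.

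Total counts were 31878934 to 46962645 per library. All 6 genes passed the filter on low counts, with between 35 and 2563 counts per library. Sensitive DMSO replicate 2 stood apart: its counts differed from the other replicates of its group by a chi-square per degree of freedom of 39.4 and 45.5, against 3.33 between those others and 3.51 to 11.3 within the other groups, so values of the 6 genes that use sensitive DMSO cells are also given without it, in their own paragraphs, where leaving it out turned the direction or moved the value by over 1.5 times. All 8 mesothelial markers reached 1 CPM (a count scaled to the library's total) in at least 1 library. So did 2 of 8 lung epithelial markers (SFTPB and CDH1), with the lung factor NKX2-1 at 0 to 2 counts in total per group. Of 5 blood markers 1 (CD14) did and CD3E was at 0, of 3 endothelial markers 1 did (VWF), and all 3 fibroblast markers did. This did not hold in every group. The mesothelial marker DES and CD14 stayed below 1 CPM in every resistant library. The fibroblast marker DCN and SFTPB reached 1 CPM only in sensitive GNE-7883 cells, and CDH1 only in sensitive DMSO cells. NF2 had 2 to 5 counts in total per group, too few to test. The classical YAP targets CCN2, CCN1 and ANKRD1 fell with GNE-7883 by 0.56, 0.34 and 0.73 on the log2 scale in resistant cells, and by 2.92, 1.31 and 2.60 in sensitive cells. In a bulk sample, fewer cells that express a gene and less RNA per cell cannot be told apart.

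SPRY4 rose with GNE-7883 in both lines, and by less in resistant than in sensitive cells. SPRY4 (ENSG00000187678, chromosome 5, 142310427 to 142326455 on the minus strand, GRCh38) encodes a Sprouty protein that binds the kinase TESK1. Levels within a gene are given as TMM-scaled CPM, in the order of replicates 1 to 3. SPRY4 stood at 30.7, 28.4 and 30.4 CPM in resistant GNE-7883 cells, against 22.5, 24.9 and 23.5 CPM in resistant DMSO cells. It stood at 57.8, 54.3 and 51.8 CPM in sensitive GNE-7883 cells, against 22.6, 20.1 and 20.9 CPM in sensitive DMSO cells. In both lines every GNE-7883 library lay above every DMSO library, and the sensitive GNE-7883 libraries lay above all others. With GNE-7883 the log2 fold change was 0.33 ± 0.068 in resistant cells (± standard error, 3 libraries per group, adjusted p = 0.00552 by edgeR's quasi-likelihood test with Benjamini-Hochberg adjustment) and 1.37 ± 0.068 in sensitive cells (adjusted p = 1.29e-10). The response in resistant cells minus that in sensitive cells was -1.03 ± 0.096 (95% interval -1.24 to -0.83, adjusted p = 7.04e-07, interaction term of the same fit). The order of levels was sensitive GNE-7883, resistant GNE-7883, resistant DMSO, sensitive DMSO. The last 2 overlapped and were not called different (0.16 ± 0.069, 95% interval 0.011 to 0.31, adjusted p = 0.0718). That call is close to the threshold, since SPRY4 was higher in resistant DMSO cells at an adjusted p of 0.00975 without scaling beyond total counts, 0.0123 and 0.0163 with limma on RPKM, and 0.0385 without sensitive DMSO replicate 1. In GNE-7883 SPRY4 was lower in resistant than in sensitive cells by a log2 fold change of -0.87 ± 0.067 (adjusted p = 1.19e-08). The antisense gene SPRY4-AS1 overlaps the 5′ end of SPRY4 and had 0 to 23 counts per library. The kit does not mark strand, so reads of the shared stretch cannot be told apart.

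SPRY1 had the lowest counts of the 6 genes in resistant cells and in sensitive DMSO cells, and it rose with GNE-7883 in both lines. SPRY1 (ENSG00000164056, chromosome 4, 123396795 to 123403760 on the plus strand) encodes the Sprouty protein that in mice restrains RET signalling in the developing kidney. It stood at 1.84, 1.64 and 1.83 CPM in resistant GNE-7883 cells, against 0.894, 0.866 and 1.07 CPM in resistant DMSO cells. It stood at 7.71, 7.10 and 6.21 CPM in sensitive GNE-7883 cells, against 2.83, 2.43 and 3.75 CPM in sensitive DMSO cells. None of the 4 groups overlapped another, and every resistant library lay below every sensitive one. The log2 fold change with GNE-7883 was 0.92 ± 0.19 in resistant cells (edgeR adjusted p = 0.00657) and 1.23 ± 0.14 in sensitive cells (adjusted p = 1.59e-06), the second being 1.10 without sensitive DMSO replicate 2 (adjusted p = 1.25e-06). The difference of these responses was -0.31 ± 0.24, with a 95% interval of -0.83 to 0.21 (adjusted p = 0.349), so a difference was not detectable, and the interval does not show that the responses were alike. Without sensitive DMSO replicate 2 it was -0.18 (adjusted p = 0.579). With limma on log2(RPKM + 1), a scale that shrinks the changes of low genes, that difference was called (-0.45, adjusted p = 0.00576). SPRY1 was lower in resistant than in sensitive cells, by -1.67 ± 0.18 in DMSO (adjusted p = 1.26e-06) and by -1.98 ± 0.15 in GNE-7883 (adjusted p = 9.2e-09). The levels ran in the order sensitive GNE-7883, sensitive DMSO, resistant GNE-7883, resistant DMSO, with each step called (adjusted p = 1.59e-06, 0.00113 and 0.00657).

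SPRY2 was higher in resistant cells, where SPRY1 was lower, and rose slightly with GNE-7883 in sensitive cells. SPRY2 (ENSG00000136158, chromosome 13, 80335976 to 80340951 on the minus strand) encodes the Sprouty protein whose phosphorylated tyrosine binds CBL. It stood at 17.6, 16.3 and 16.7 CPM in resistant GNE-7883 cells, against 16.3, 16.4 and 15.3 CPM in resistant DMSO cells. It stood at 7.60, 6.37 and 7.53 CPM in sensitive GNE-7883 cells, against 5.81, 5.45 and 4.68 CPM in sensitive DMSO cells. The resistant groups overlapped, the sensitive groups did not, and every resistant library lay above every sensitive one. SPRY2 was higher in resistant than in sensitive cells by 1.59 ± 0.092 in DMSO (edgeR adjusted p = 8.44e-10) and by 1.23 ± 0.090 in GNE-7883 (adjusted p = 6.83e-09). With GNE-7883 the log2 fold change in resistant cells was 0.08 ± 0.084, with a 95% interval of -0.10 to 0.25 (adjusted p = 0.672). In sensitive cells SPRY2 rose by 0.43 ± 0.098 (adjusted p = 0.00143). The difference of the responses was -0.35 ± 0.13 (adjusted p = 0.0436). This call ended under 12 of 20 other settings, with adjusted p-values of 0.0636 to 0.163, among them 9 of the 12 fits that left out 1 library.

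**Figure D1:**
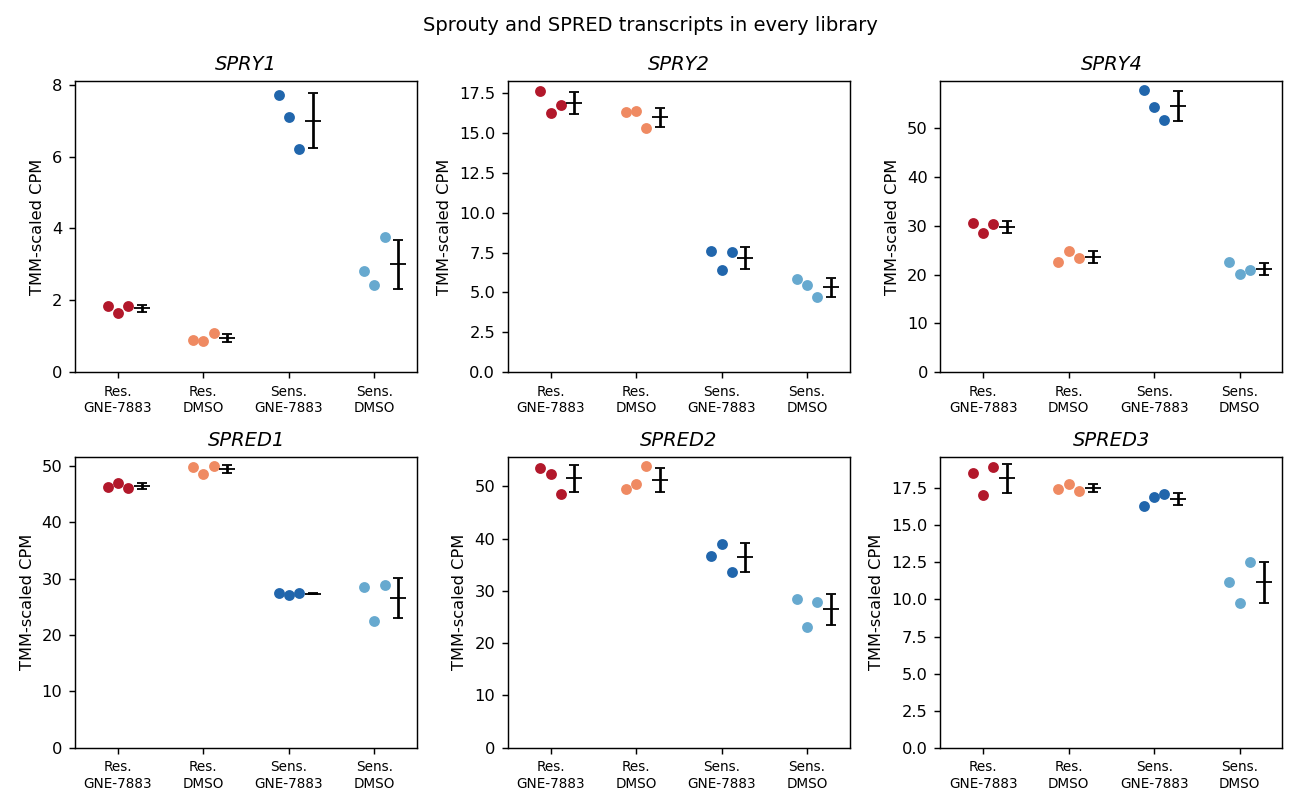
TMM-scaled CPM of each Sprouty and SPRED gene (1 panel each) in every library, by group; points are replicates 1 to 3 in that order, and the bar beside them is the mean with its SD (n = 3). SPRY4 is highest in sensitive GNE-7883 cells (51.8 to 57.8 CPM), while SPRY2, SPRED1 and SPRED2 lie higher in both resistant groups than in either sensitive group.

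SPRED1 was higher in resistant cells and did not change detectably with GNE-7883 in either line. SPRED1 (ENSG00000166068, chromosome 15, 38252326 to 38357249 on the plus strand) encodes the partner of neurofibromin, and its loss in people causes Legius syndrome. It stood at 46.3, 47.1 and 46.1 CPM in resistant GNE-7883 cells, against 49.8, 48.7 and 50.1 CPM in resistant DMSO cells. It stood at 27.5, 27.2 and 27.4 CPM in sensitive GNE-7883 cells, against 28.6, 22.5 and 28.8 CPM in sensitive DMSO cells. The low value in the last group belonged to the replicate that stood apart. The log2 fold change with GNE-7883 was -0.09 ± 0.075 in resistant cells (95% interval -0.25 to 0.07, edgeR adjusted p = 0.539), although these groups did not overlap. In sensitive cells it was 0.04 ± 0.078 (95% interval -0.13 to 0.21, adjusted p = 0.696), and -0.07 without sensitive DMSO replicate 2 (adjusted p = 0.27), so no direction is given. The difference of the responses was -0.13 ± 0.11 (95% interval -0.36 to 0.10, adjusted p = 0.382), and -0.022 without sensitive DMSO replicate 2 (adjusted p = 0.83). SPRED1 was higher in resistant than in sensitive cells by 0.89 ± 0.077 in DMSO (adjusted p = 9.47e-08) and by 0.76 ± 0.077 in GNE-7883 (adjusted p = 3.14e-07).

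SPRED2 was also higher in resistant cells, and it rose with GNE-7883 in sensitive cells. SPRED2 (ENSG00000198369, chromosome 2, 65310851 to 65432637 on the minus strand) encodes a close relative of SPRED1 that also restrains RAS to ERK signalling. It stood at 53.5, 52.4 and 48.6 CPM in resistant GNE-7883 cells, against 49.5, 50.4 and 53.9 CPM in resistant DMSO cells. It stood at 36.6, 39.1 and 33.6 CPM in sensitive GNE-7883 cells, against 28.5, 23.1 and 27.9 CPM in sensitive DMSO cells. The resistant groups overlapped over nearly their whole range, and the sensitive groups did not overlap. With GNE-7883 the log2 fold change was 0.0078 ± 0.080 in resistant cells (95% interval -0.16 to 0.18, edgeR adjusted p = 0.975) and 0.46 ± 0.082 in sensitive cells (adjusted p = 0.000184), which became 0.37 without sensitive DMSO replicate 2 (adjusted p = 0.000136). The difference of the responses was -0.45 ± 0.11 (adjusted p = 0.00604). SPRED2 was higher in resistant than in sensitive cells by 0.95 ± 0.082 in DMSO (adjusted p = 9.23e-08) and by 0.50 ± 0.081 in GNE-7883 (adjusted p = 5.24e-05).

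SPRED3 was lower in sensitive DMSO cells than in the other 3 groups, among which no difference was called. SPRED3 (ENSG00000188766, chromosome 19, 38388421 to 38399587 on the plus strand) encodes the SPRED protein that lacks a functional KIT-binding domain. It stood at 18.6, 17.1 and 18.9 CPM in resistant GNE-7883 cells, against 17.4, 17.8 and 17.3 CPM in resistant DMSO cells. It stood at 16.3, 16.9 and 17.1 CPM in sensitive GNE-7883 cells, against 11.2, 9.75 and 12.5 CPM in sensitive DMSO cells. All sensitive DMSO libraries lay below all others. With GNE-7883 the log2 fold change in resistant cells was 0.05 ± 0.081 (95% interval -0.12 to 0.22, edgeR adjusted p = 0.777). In sensitive cells SPRED3 rose by 0.59 ± 0.084 (adjusted p = 1.87e-05), and by 0.50 without sensitive DMSO replicate 2 (adjusted p = 1.37e-05). The difference of the responses was -0.54 ± 0.12 (adjusted p = 0.00194). In DMSO it was higher in resistant than in sensitive cells by 0.65 ± 0.084 (adjusted p = 8.07e-06). In GNE-7883 the lines differed by 0.12 ± 0.082 (95% interval -0.06 to 0.29, adjusted p = 0.236), which passed the threshold without scaling beyond total counts (adjusted p = 0.0464).

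Per length, SPRED2 was the most abundant of the 6 transcripts in 3 groups and SPRY4 in sensitive GNE-7883 cells. Summed RPKM (counts scaled to gene length and library total) of the 6 genes was 34.8 ± 0.678 in resistant GNE-7883 cells, 33.2 ± 0.362 in resistant DMSO cells, 30.3 ± 1.15 in sensitive GNE-7883 cells and 18.4 ± 1.56 in sensitive DMSO cells (SD, n = 3 each). The 3 Sprouty genes together gave 12.5 and 10.6 RPKM in resistant GNE-7883 and DMSO cells, and 15.2 and 6.82 RPKM in sensitive GNE-7883 and DMSO cells. The 3 SPRED genes gave 22.4 and 22.6 RPKM in resistant cells, and 15.0 and 11.6 RPKM in sensitive cells, in the same order of treatments. Sensitive GNE-7883 cells had a sum nearer to that of resistant cells, with larger shares of SPRY4 and SPRY1 and smaller shares of SPRY2, SPRED1 and SPRED2. SPRY4 made up 17.7% and 14.7% of the sum in resistant GNE-7883 and DMSO cells, and 35.3% and 22.6% in sensitive GNE-7883 and DMSO cells. SPRED2 made up 36.5% and 38.1% in resistant cells, and 28.1% and 33.7% in sensitive cells. SPRED1 made up 17.6% and 19.7% in resistant cells, and 11.3% and 18.1% in sensitive cells. SPRY2 made up 16.4% and 16.3% in resistant cells, and 7.60% and 9.31% in sensitive cells. SPRY1 made up 1.73% and 0.966% in resistant cells, and 7.44% and 5.23% in sensitive cells, and in sensitive GNE-7883 cells its share and that of SPRY2 lay within 1 SD of each other.

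**Figure D2:**
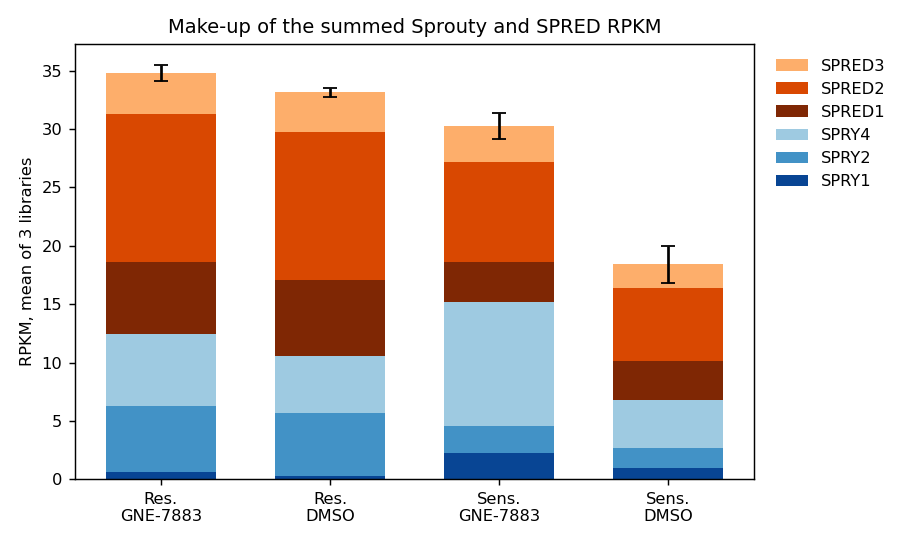
Mean RPKM of the 6 genes stacked by group (n = 3 libraries each), SPRED genes in orange tones and Sprouty genes in blue tones; the error bar is the SD of the sum. The sum is 30.3 RPKM in sensitive GNE-7883 cells and 18.4 RPKM in sensitive DMSO cells, and the SPRY4 segment (10.7 RPKM) is the thickest in sensitive GNE-7883 cells.

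Over the 6 genes, which leave out SPRY3, GNE-7883 raised 2, SPRY1 and SPRY4, and lowered 0 in resistant cells. In that comparison 9.22% of all 18035 genes tested were called, 5.25% as rising and 3.97% as falling. SPRY1 and SPRY4 were called in this comparison without any 1 library, while the count over all genes (1663) ranged from 892 without resistant GNE-7883 replicate 3 to 3073 without sensitive DMSO replicate 2, and was 893, 962 and 999 without resistant DMSO replicate 1, resistant DMSO replicate 3 and resistant GNE-7883 replicate 1. The median of the 6 genes was 0.06, against -0.0028 over all genes. The mitochondrial share was 0.614% to 0.693% in resistant GNE-7883 cells and 0.561% to 0.685% in resistant DMSO cells. In sensitive cells GNE-7883 raised 5 genes, all but SPRED1, and lowered 0, where 58.1% of all genes were called, 29.8% as rising and 28.4% as falling. The median log2 fold change of the 6 genes was 0.52, against 0.02 over all genes. Mitochondrial transcripts took 0.954% to 1.09% of counts in sensitive GNE-7883 cells and 0.522% to 0.622% in sensitive DMSO cells. Summed blood markers, nearly all of them CD14, were at 5.17 to 5.97 CPM in sensitive GNE-7883 cells and 1.64 to 2.27 CPM in sensitive DMSO cells, with the T cell marker CD3E at 0. The part of either in these changes was not tested. The response differed between the lines for 4 genes, SPRY2, SPRY4, SPRED2 and SPRED3, all with a less positive response in resistant cells, where 35.7% of all genes were called, 16.7% with a less positive and 19.0% with a more positive response. The difference of the responses had a median of -0.40 for the 6 genes and -0.0093 over all genes.

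Between the lines in DMSO, 4 genes were higher in resistant cells (SPRY2, SPRED1, SPRED2, SPRED3) and 1 was lower (SPRY1), where 48.7% of all genes were called, 24.2% as higher and 24.4% as lower. Higher genes made up 49.8% of the calls with TMM and 59.5% without scaling beyond total counts. The median of the 6 genes was 0.77, against -0.0020 over all genes. In GNE-7883, 3 were higher (SPRY2, SPRED1, SPRED2) and 2 were lower (SPRY1, SPRY4), where 61.9% of all genes were called, 30.7% as higher and 31.1% as lower. Here higher genes made up 49.7% of the calls with TMM and 56.2% without that scaling. The median was 0.31, against -0.013 over all genes. Summed mesothelial markers differed between the lines as well, at 2758 to 3044 CPM in resistant GNE-7883 and 2189 to 2577 CPM in resistant DMSO cells, and at 5135 to 5380 CPM in sensitive GNE-7883 and 4274 to 5251 CPM in sensitive DMSO cells. KRT19, CALB2 and UPK3B made up most of that sum. KRT5 went the other way, at 122 and 108 CPM on average in resistant GNE-7883 and DMSO cells, and 30.1 and 78.7 CPM in sensitive GNE-7883 and DMSO cells. PDPN was at 182 and 155 CPM in resistant GNE-7883 and DMSO cells, and 178 and 157 CPM in sensitive GNE-7883 and DMSO cells. Summed fibroblast markers were 515 to 585 CPM in resistant GNE-7883 and 388 to 483 CPM in resistant DMSO cells, and 458 to 526 CPM in sensitive GNE-7883 and 754 to 819 CPM in sensitive DMSO cells. COL1A1 made up most of that sum. PDGFRB averaged 33.4 and 26.9 CPM in resistant GNE-7883 and DMSO cells, and 65.9 and 122.5 CPM in sensitive GNE-7883 and DMSO cells. DCN averaged 0.059 and 0.079 CPM in resistant cells, and 1.28 and 0.415 CPM in sensitive cells, in the same order of treatments. The part of either list in the family's levels was not tested. The drug and line comparisons share libraries, since sensitive DMSO cells are the baseline of both. In the pairs that serve only to order levels, 5 genes were higher and 1 lower in resistant GNE-7883 than in sensitive DMSO cells (47.1% of all genes called, 23.1% as higher and 24.0% as lower). In resistant DMSO against sensitive GNE-7883 cells, 3 were higher and 2 lower (66.3% called, 33.1% as higher and 33.2% as lower).

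**Figure D3:**
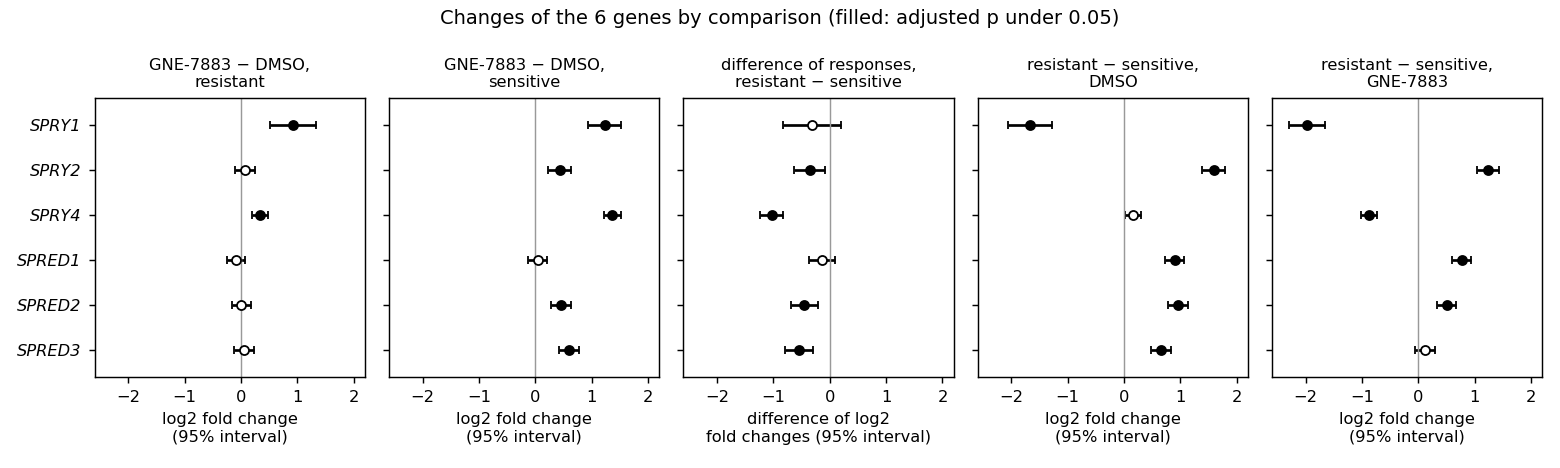
Log2 fold change of each gene (rows) with its 95% interval in the 5 comparisons (panels), each named with its numerator first, from edgeR with 3 libraries per group; filled points have an adjusted p under 0.05. With GNE-7883 SPRY4 changes by 0.33 in resistant cells and 1.37 in sensitive cells, and SPRY1 lies left of 0 and SPRY2 right of 0 in both comparisons of the lines.

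Another list held 17 other feedback genes and inhibitors of the pathway. They were SPRY3, DUSP phosphatase genes, IL17RD, ERRFI1, LRIG1, LRIG3, PEBP1 and the RAS GTPase-activating protein genes RASA1, RASA2 and RASAL2. Of these, GNE-7883 raised 2 and lowered 2 in resistant cells, with a median of -0.07 on the log2 scale. SPRY3 (0.48 ± 0.079) and DUSP6, the cytoplasmic ERK phosphatase (0.29 ± 0.078, edgeR adjusted p = 0.0281), rose, and DUSP5 (-0.95 ± 0.080) and DUSP1 (-0.17 ± 0.051) fell. The calls of DUSP1 and DUSP6 in resistant cells ended under 15 and 5 other settings. The number that fell in resistant cells became 1 without any 1 library other than sensitive DMSO replicates 2 and 3, and 4 without sensitive DMSO replicate 2, and the number that rose became 1 without resistant DMSO replicate 1 or 2 or resistant GNE-7883 replicate 1 or 3. In sensitive cells 4 rose and 7 fell, with a median of -0.16. DUSP6 rose by 2.07 ± 0.11 (adjusted p = 3.47e-10) and LRIG3 by 1.67 ± 0.14, while the nuclear ERK phosphatases DUSP5 (-1.62 ± 0.092) and DUSP2 (-1.80 ± 0.22) fell. Levels of DUSP2, DUSP6 and LRIG3 were low. They averaged 0.556, 6.30 and 5.88 CPM in sensitive GNE-7883 cells, and 1.96, 1.49 and 1.84 CPM in sensitive DMSO cells. Responses differed for 5 genes with a more positive and 4 with a less positive value in resistant cells, DUSP5 (0.68 ± 0.12) among the first and DUSP6 (-1.78 ± 0.14) among the second. Between the lines in DMSO 10 were higher and 3 lower in resistant cells, with a median of 0.28, led by DUSP6 (3.60 ± 0.10) and DUSP4 (2.21 ± 0.066). In GNE-7883 10 were higher and 3 lower, with a median of 0.48, with DUSP4 at 2.46 ± 0.068 and DUSP6 at 1.82 ± 0.086 highest and ERRFI1, an inhibitor of EGFR, at -1.24 ± 0.072 lowest. The share of these feedback genes that was called was 23.5% against 9.22% of all genes with GNE-7883 in resistant cells, 64.7% against 58.1% in sensitive cells, 52.9% against 35.7% for the difference of the responses, 76.5% against 48.7% between the lines in DMSO and 76.5% against 61.9% in GNE-7883.

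Of 20 genes that ERK signalling is known to induce 16 were tested, ETV1, EGR2, EGR3 and EREG being too low. With GNE-7883 0 rose and 3 fell in resistant cells, with a median of -0.12, the AP-1 subunit FOSL1 (-0.54 ± 0.068, edgeR adjusted p = 9.93e-05) and the EGFR ligand HBEGF (-0.47 ± 0.055) among them. In sensitive cells 3 rose and 8 fell, with a median of -0.13. FOSL1 fell (-1.62 ± 0.075, adjusted p = 5.29e-11), as did the EGFR ligand AREG (-1.04 ± 0.20), while the immediate early genes FOS (0.87 ± 0.18) and EGR1 (0.73 ± 0.16) rose. Responses were more positive in resistant cells for 5 genes and less positive for 2. Without sensitive DMSO replicate 2, 7 genes fell in resistant cells and 4 had a less positive response there. Between the lines in DMSO 12 were higher in resistant cells and 1 was lower, with a median of 0.88, led by FOSL1 (1.90 ± 0.071) and the ETS factor ETV4 (1.89 ± 0.088), with HBEGF lower (-0.28 ± 0.054). In GNE-7883 12 were higher and 2 lower, with a median of 0.75, and FOSL1 (2.97 ± 0.076) and ETV4 (2.60 ± 0.096) were again highest. Among the ERK output genes the share called was 18.8% against 9.22% of all genes with GNE-7883 in resistant cells, 68.8% against 58.1% in sensitive cells, 43.8% against 35.7% for the difference of the responses, 81.2% against 48.7% between the lines in DMSO and 87.5% against 61.9% in GNE-7883.

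Of 14 receptor tyrosine kinases, the class of receptors downstream of which Sprouty and SPRED proteins act, 13 were tested, KIT being too low. In resistant cells 3 rose and 2 fell with GNE-7883, with a median of 0.02 and with KDR, which encodes a vascular endothelial growth factor receptor, at 0.56 ± 0.085 (edgeR adjusted p = 0.000528). The number that fell became 1 without any 1 of the 6 resistant libraries, and the number that rose became 1 without resistant GNE-7883 replicate 3. In sensitive cells 7 rose and 5 fell, with a median of 0.31. The platelet-derived growth factor receptor gene PDGFRA (3.13 ± 0.14, adjusted p = 3.58e-11) and KDR (1.77 ± 0.082) rose most, and ERBB3 (-2.52 ± 0.074) and FGFR4 (-2.06 ± 0.13) fell most. In DMSO 1 receptor, EGFR, was higher in resistant cells (1.21 ± 0.13) and 8 were lower, with a median of -1.19, with IGF1R (-2.51 ± 0.098) and PDGFRB (-2.26 ± 0.071) lowest. In GNE-7883 5 were higher and 8 lower, with a median of -0.68. GNE-7883 responses were more positive in resistant cells for 5 receptors, with ERBB3 highest (a difference of 2.26 ± 0.10), and less positive for 4, with PDGFRA lowest (-2.58 ± 0.30). For the receptors the share called was 38.5% against 9.22% of all genes with GNE-7883 in resistant cells, 92.3% against 58.1% in sensitive cells, 69.2% against 35.7% for the difference of the responses, 69.2% against 48.7% between the lines in DMSO and all 13 receptors against 61.9% in GNE-7883.

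Among 19 genes for binding partners of Sprouty and SPRED proteins, 1 rose and 0 fell with GNE-7883 in resistant cells, with a median of -0.0047. It was the kinase gene MKNK2 (0.28 ± 0.080, edgeR adjusted p = 0.0399), not called under 9 other settings. In sensitive cells 9 rose and 3 fell, with a median of 0.08. The RAS activator SOS2 (1.02 ± 0.092, adjusted p = 1.17e-07) and the ubiquitin ligase CBLB (0.78 ± 0.096) rose most, and CAV1, which encodes caveolin-1, fell most (-1.50 ± 0.047). Between the lines 6 were higher and 6 lower in resistant cells in DMSO, with a median of 0.05, and 5 were higher and 10 lower in GNE-7883, with a median of -0.32. CAV1 was higher in resistant cells in both, by 1.50 ± 0.047 in DMSO and 2.92 ± 0.049 in GNE-7883, and LZTR1, which marks RAS proteins for degradation, by 0.79 ± 0.090 and 1.02 ± 0.091. For 2 genes the response was more positive in resistant cells, and for 3 less positive. In sensitive cells the number that rose became 4 without sensitive GNE-7883 replicate 2, and the number that fell became 5 without resistant DMSO replicate 2 or resistant GNE-7883 replicate 1. In resistant cells 3 rose and 1 fell without sensitive DMSO replicate 2, and 0 rose without resistant DMSO replicate 1 or 3, resistant GNE-7883 replicate 1 or 3, or sensitive GNE-7883 replicate 1 or 3. For the difference of the responses, 4 were more positive without resistant DMSO replicate 2 and 5 less positive without sensitive DMSO replicate 3. The share of binding partners called was 5.26% against 9.22% of all genes with GNE-7883 in resistant cells, 63.2% against 58.1% in sensitive cells, 26.3% against 35.7% for the difference of the responses, 63.2% against 48.7% between the lines in DMSO and 78.9% against 61.9% in GNE-7883.

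Of 14 genes of the RAS to ERK cascade itself, 1 rose (MRAS, 0.34 ± 0.082, edgeR adjusted p = 0.0147) and 1 fell (the MEK gene MAP2K1, -0.23 ± 0.049) with GNE-7883 in resistant cells, with a median of 0.0049. In sensitive cells 5 rose and 3 fell, with a median of 0.12. MRAS rose by 0.81 ± 0.075 (adjusted p = 1.5e-07) and BRAF by 0.41 ± 0.11, while HRAS fell by 0.96 and MAP2K1 by 0.53 on the log2 scale. Between the lines in DMSO 5 were higher and 4 lower in resistant cells, with a median of -0.05. MRAS (-1.10 ± 0.080) and the scaffold gene KSR1 (-0.96 ± 0.079) were lower. In GNE-7883 4 were higher and 6 lower, with a median of -0.07. For 2 genes the response was more positive in resistant cells, HRAS among them (a difference of 0.77 ± 0.14), and for 4 less positive. In resistant cells the number that rose became 2 without resistant DMSO replicate 2 or resistant GNE-7883 replicate 2, 3 without sensitive DMSO replicate 2 and 0 without resistant DMSO replicate 3, and the number that fell became 0 without resistant DMSO replicate 1 or 3 or resistant GNE-7883 replicate 3. In DMSO 3 were higher in resistant cells without resistant DMSO replicate 1 or 3 or sensitive DMSO replicate 2. Cascade genes were called at a share of 14.3% against 9.22% of all genes with GNE-7883 in resistant cells, 57.1% against 58.1% in sensitive cells, 42.9% against 35.7% for the difference of the responses, 64.3% against 48.7% between the lines in DMSO and 71.4% against 61.9% in GNE-7883.

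**Figure D4:**
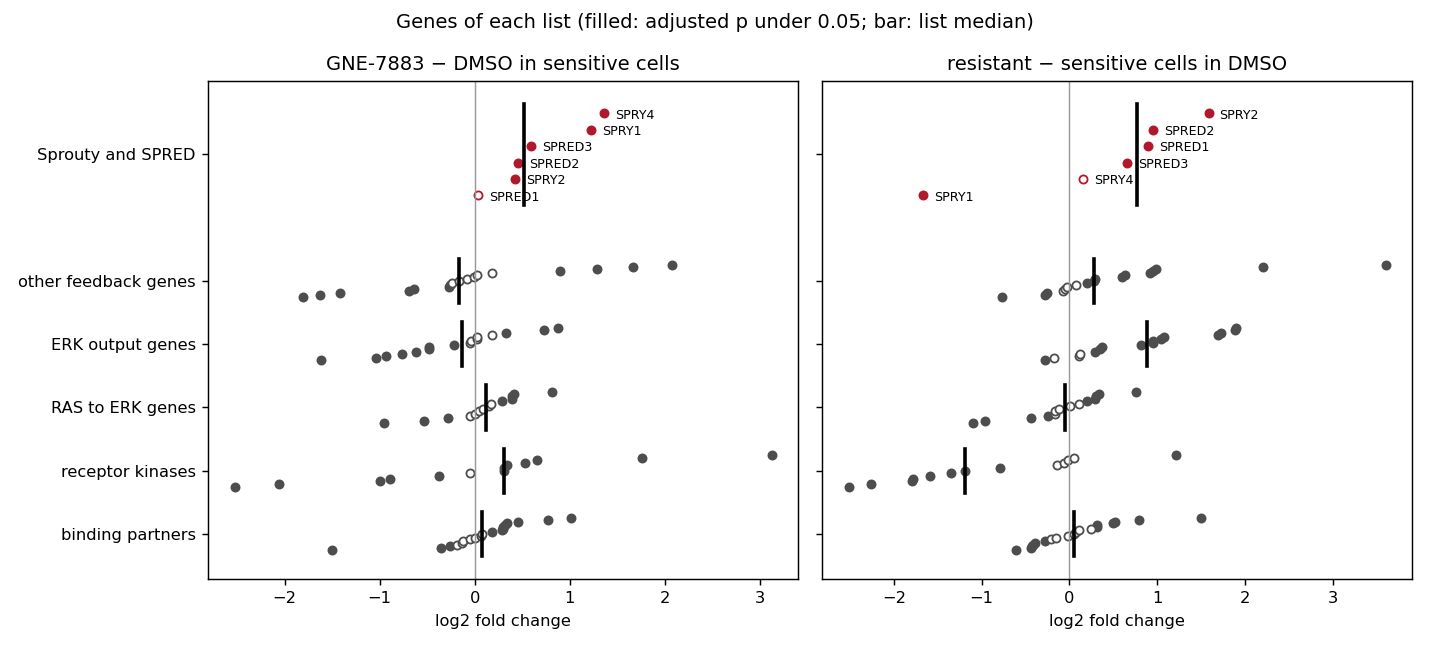
Log2 fold change of each tested gene (points) by list (rows), for GNE-7883 against DMSO in sensitive cells on the left and resistant against sensitive cells in DMSO on the right; filled points have an adjusted p under 0.05 and the upright bar is the list's median. On the left the 5 filled points of the 6 Sprouty and SPRED genes lie right of 0. The feedback genes, SPRY3 among them, reach both ways. On the right the ERK output genes have a median of 0.88 and the receptors one of -1.19.

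Genes with the most similar profiles were sought by Pearson's r of log2 CPM over the 12 libraries among 13861 genes. The libraries fall into 4 groups, so r mainly reflects the 4 group means and is given as a description. SPRY1 was nearest to CYP26B1 (r = 0.993), which encodes a retinoic acid hydroxylase, GPR37 (0.993) and SLC17A5 (0.992), the gene of the lysosomal sialic acid carrier. SPRY2 was nearest to the interleukin-17 receptor gene IL17RA (0.993), TP53TG1 (0.992) and MIEF1 (0.991). SPRY4 was nearest to H6PD (0.994), FAXDC2 (0.993) and TPP1 (0.991), which encodes a lysosomal peptidase. SPRED1 was nearest to the kinase gene TNIK (0.999), GNAQ (0.996) and RASA1 (0.993), a RAS GTPase-activating protein gene. Among the genes nearest to SPRED2 were USP9Y (0.990) and EDA2R (0.988). SPRED3 was nearest to ARPIN (0.984), MICAL2 (0.983) and SNX29 (0.982).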

How the data were processed

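RNA from 12 libraries of 4 groups was read from 1 end in 50-base reads with a kit that does not mark strand, per the labels' protocols. The submitters' processing notes name GSNAP, limma and GRCh38.p10 without giving each a step; neither the counting tool nor the annotation is given. The authors deposited whole-number read counts per gene, not normalized, and RPKM values of the same genes. Over 12122 genes the RPKM values equalled counts divided by a gene factor and the library total, within 9.49e-09. Symbols matched 57532 of 58302 identifiers, and gene coordinates came from GENCODE 29 on GRCh38.

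Counts were tested with edgeR 4.0.16 in R 4.3.3 (TMM, filterByExpr by group, quasi-likelihood fit with 1 mean per group over all 12 libraries, two-sided, Benjamini-Hochberg over 18035 genes in each comparison, called at an adjusted p under 0.05). Of 5 comparisons 1 is the interaction, and 2 more pairs served to order levels. The standard error is the log2 fold change divided by the square root of F. RPKM was used only to compare genes and, with limma 3.58.1 on log2(RPKM + 0.1 or + 1), as an alternative. Other alternatives were DESeq2 1.42.0, its size factors, no scaling, other filters, only the groups compared, a replicate block and leaving out each library. The test was also run on simulated counts, which had the same spread setting for all genes and no library that stood apart. That run therefore cannot vouch for the calls in these data. The members and lists were chosen with earlier results of these data known. Named in each list and comparison are the called genes of at least 1 CPM that rose most (2) and fell most (2), and per member the 3 most similar genes; a few genes that this rule names are not reported here. Intervals cover the spread between libraries.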

Additional observations from a re-analysis of the deposited data

Results flagged for a closer look

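For 4 of the 6 genes the response to GNE-7883 differed between the lines by the interaction term, which tests the difference of the log2 fold changes itself. Such a call was common, since 35.7% of all genes tested had one, 16.7% with a less positive response in resistant cells. For SPRY4 the resistant response minus the sensitive one was -1.03 (0.33 in resistant cells and 1.37 in sensitive cells), in the same direction under every alternative run. For SPRED3 it was -0.54 (0.05 in resistant cells and 0.59 in sensitive cells), and for SPRED2 it was -0.45 (0.0078 in resistant cells and 0.46 in sensitive cells). For SPRY2 it was -0.35 (0.08 in resistant cells and 0.43 in sensitive cells), the call that ended under 12 of 20 other settings. Without sensitive DMSO replicate 2 these differences were -0.99 for SPRY4, -0.45 for SPRED3, -0.36 for SPRED2 and -0.37 for SPRY2.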

How the results depend on the processing

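Among the recomputed values of the 6 genes, 855 kept their direction and side of the threshold, 12 lost a call, 6 gained one and 3 changed sign, all 3 in changes that were not called: SPRED1 with GNE-7883 in sensitive cells (-0.00086 with no filter on low counts and -0.069 to 0.098 when 1 library was left out, the lowest without sensitive DMSO replicate 2) and SPRED2 in resistant cells (-0.0043 to 0.063, the lowest without resistant GNE-7883 replicate 1). The cause was not tested. All 12 lost calls were the SPRY2 difference of responses. The count of all genes called with GNE-7883 in resistant cells was 1663 and ran from 892 without resistant GNE-7883 replicate 3 to 3073 without sensitive DMSO replicate 2, with 893, 962 and 999 without resistant DMSO replicate 1, resistant DMSO replicate 3 and resistant GNE-7883 replicate 1. Of 1040 recomputed list counts 73 moved by over 1.5 times, most of them in the same comparison. Replicate numbers did not pair the libraries over all groups: same-numbered libraries deviated with r of -0.34 to 0.38, other numbers with -0.38 to 0.35. Of the libraries, 0 of 12 correlated best with its own number in every group. Between the lines, replicates 1 to 3 had r of 0.05, 0.38 and 0.32 in DMSO. In GNE-7883 these were 0.15, 0.18 and -0.0085. Pairing within a treatment was not tested. With the replicate block 5, 2, 5, 5 and 4 of the 6 genes were called, as without it, and 10305, 1372, 8594, 11050 and 6211 of all genes. Without scaling beyond total counts, 59.6% of the genes called in resistant GNE-7883 against sensitive DMSO cells were higher, against 49.0% with TMM. Depth limits SPRY1 most, with as few as 35 counts in a library.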

Other observations

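SPRY3, the Sprouty gene outside the 6 listed symbols, also moved with GNE-7883. It averaged 17.9 ± 0.481 CPM in resistant GNE-7883 cells, 12.8 ± 0.273 CPM in resistant DMSO cells, 38.2 ± 0.199 CPM in sensitive GNE-7883 cells and 15.6 ± 1.89 CPM in sensitive DMSO cells (SD, n = 3 each). With GNE-7883 it rose by 0.48 ± 0.079 on the log2 scale in resistant cells (edgeR adjusted p = 0.00114) and by 1.29 ± 0.077 in sensitive cells (adjusted p = 9.62e-10), and the response in resistant cells minus that in sensitive cells was -0.81 ± 0.11 (adjusted p = 3.3e-05). It was lower in resistant than in sensitive cells in GNE-7883 (-1.09 ± 0.076, adjusted p = 3.6e-09). In DMSO the difference was -0.28 ± 0.080 (adjusted p = 0.00771), a call that ended with limma on RPKM (adjusted p = 0.0922 and 0.0971). The sensitive response and the difference of the responses were chosen for mention after their values were seen.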
